A study of Mus musculus with 4 samples.

Results

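The transcripts described here are those of 7 mouse genes, measured by 10 of the 41174 probes of a whole-genome array on RNA recovered with FLAG-tagged NANOS2. Nefl, Grm3, Lrrc3b, Samd7 and Lcorl were selected on the measured difference between FLAG immunoprecipitates (FLAG IP) and the starting material (Input), where they were among the highest, so that difference is given as a description and is not tested. Nefm and Nefh, relatives of Nefl, were added for contrast. All 7 are among the 16358 gene symbols that the probes name. Named genes, without clone names, that passed the test, did not overlap between groups and were well above background throughout were ranked by difference, and in that order the 5 chosen genes held ranks 6, 8, 9, 11 and 12. The last of them, Lrrc3b, had a log2 difference of 3.53, and the gene just below it, Hlf, had 3.46. Among all 21590 tested features the 5 chosen genes held ranks between 20 and 35.

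The comparison was between 2 FLAG IP arrays and 2 Input arrays, each of testis from mice at postnatal day 7. Every sample of both groups carried the same transgene, in which a Nanos2 enhancer drives 3xFLAG-Nanos2 followed by a 3′UTR, so the tagged protein is made where that enhancer is active. The age is taken from the titles and characteristics, since the description field of all 4 samples names an embryonic gonad instead. The duplicates are biological according to the series' design text, the labels name no animals, and no sample without the tag was analysed here.

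NANOS2 is an RNA-binding protein of the male germ line that keeps spermatogonial stem cells undifferentiated and recruits the CCR4-NOT deadenylase to bound mRNAs. In an immunoprecipitation of such a protein, a transcript with a larger share of the recovered RNA than of the starting RNA gives a positive difference. Neurofilaments are the intermediate filaments of axons and are assembled from a light (Nefl), a medium (Nefm) and a heavy (Nefh) chain, with alpha-internexin (Ina) as a further partner. Grm3 encodes a metabotropic glutamate receptor that lowers cyclic AMP, Lrrc3b a membrane protein with leucine-rich repeats, Samd7 a sterile alpha motif (SAM) protein that works with Polycomb proteins in retinal photoreceptors, and Lcorl a nuclear factor related to the corepressor Lcor.

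A level below is the log2 processed signal less that of its array's 75th percentile, and a difference is FLAG IP minus Input on that log2 scale. The 75th percentile signal was 1019 and 1267 units on the FLAG IP arrays, against 1474 and 1676 units on the Input arrays, and between 66.3% and 68.4% of probes were well above background. The number of arrays limits the precision. Of 21590 features tested (1 probe per gene or accession), 3409 (15.8%) were higher and 4600 (21.3%) were lower in the FLAG IP at an adjusted p under 0.05 in limma with Benjamini-Hochberg adjustment, with a median difference of −0.15. These counts fell when either Input array was left out, with the spread then taken from the FLAG IP arrays alone. The median difference was then −0.14 in both cases. Scaling to spike-in control spots gave 387 higher and 13035 lower. All adjusted p-values below are from that model, and ± on a difference is its standard error with n = 2 arrays per group. For a level in RNA of a whole testis, more cells of a type and more RNA per cell cannot be told apart. A difference compares recovered with starting RNA, and with no sample without the tag, binding to the tagged protein was not tested. Nanos2 itself had levels of −1.94 and −2.44 in the FLAG IP against −3.87 and −3.66 in the Input, a rise of 1.58 ± 0.22 (adjusted p = 0.010). Whether its probe reads the transgene, the endogenous gene or both is not known here.

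The arrays carried the transcripts that the tissue label calls for: all 11 Sertoli cell markers and all 10 germ cell markers with a probe were well above background on all 4 arrays. The summed level of the germ cell markers, in multiples of the 75th percentile, was 86.2 and 111 in the FLAG IP against 75.5 and 75.8 in the Input. Among these 10, 1 (Taf7l) was called higher and 0 lower, with a median difference of 0.13. Taf7l had log2 levels of 4.25 and 4.53 in the FLAG IP against 2.97 and 3.00 in the Input. Without it the summed levels of the groups overlapped. Of 13 tested markers of undifferentiated spermatogonia, 12 were higher and 1 (Utf1) lower in the FLAG IP, against 15.8% and 21.3% of all features. This list was fixed with earlier results of these data known. It holds the tagged gene Nanos2, and Lhx1 and Neurog3, which ranked 3 and 7 in the same order as the chosen genes. The summed level of the list was 43.4 and 33.2 in the FLAG IP against 7.66 and 7.87 in the Input. Foxo1 had the highest level in it, 4.67 and 4.24 in the FLAG IP against 2.07 and 2.13 in the Input on the log2 scale. The summed level of 11 Sertoli markers was 152 and 141 in the FLAG IP against 220 and 214 in the Input, that of 7 Leydig markers 13.7 and 17.6 against 38.4 and 29.0, that of 6 macrophage markers 1.64 and 1.77 against 3.57 and 3.61, and that of 7 endothelial markers 2.15 and 1.55 against 2.12 and 2.96, in the same order of groups. The part of these cell types in the differences below was not tested.

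The 5 chosen genes had differences between 3.53 and 3.78, or 11.6- to 13.8-fold, with a median of 3.61. All 5 were at least 2-fold higher in every pairing of a FLAG IP with an Input array, where 6.78% of all tested features were (5.28% were at least 2-fold lower), and this count follows from how they were chosen. The smallest of the 4 pairings of any of them was 2.88, or 7.38-fold, for Lrrc3b. Every member probe was well above background on all 4 arrays, so none of these values is only a bound. The Input spots were dim all the same: the processed signals of the 5 genes ran from 389 to 4185 units in the FLAG IP and from 44.3 to 496 units in the Input, where the lowest signal counted as well above background was 13.4 and 14.8 units on the FLAG IP arrays and 16.9 and 19.4 units on the Input arrays.

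**Figure D1:**
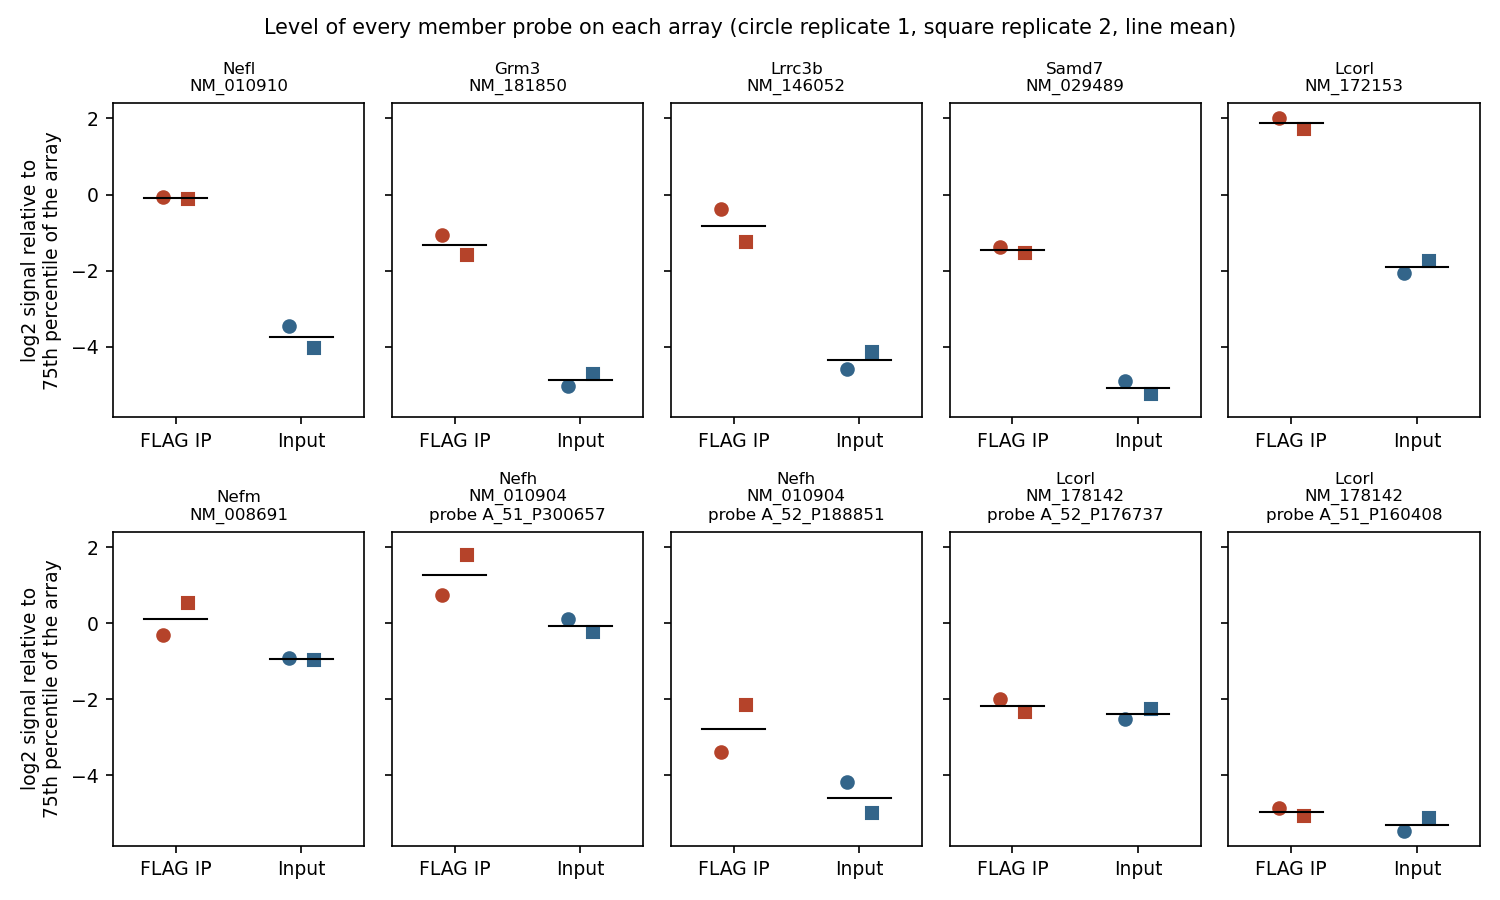
Level of each of the 10 member probes on each array, as log2 signal relative to the array's 75th percentile (y axis), with FLAG IP at the left and Input at the right of each panel, circles for replicate 1, squares for replicate 2 and a line at the group mean. The FLAG IP and Input arrays lie far apart in the 5 upper panels, and close together for the 2 Lcorl probes of NM_178142 in the lower row.

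Promoter sequence from RefSeq (build GRCm38.p6) was at hand for 4 of the 7 members, Grm3, Lrrc3b, Samd7 and Lcorl, in 5 stretches of 300 bases, as Lcorl has 2 annotated starts. They are shown as background on the 4 genes, and because the probes of Lcorl are listed for different transcripts. Transcription from these starts was not measured. Each stretch is written 5′ to 3′ on the gene's strand, with capitals for a searched motif. The first, at chr5:9725353-9725382 on the minus strand, ends at the base before the Grm3 start and holds a GC box in capitals.
Grm3: cgggcagtggtccagcgcgcagccGGGCGG
The stretch just before the Lrrc3b start, at chr14:15438988-15439017 on the minus strand, held none of the searched motifs.
Lrrc3b: ccagtccaggtttggaggcgagtcccctct
In Samd7 the stretch at chr3:30746065-30746094 on the plus strand, at positions −228 to −199 from the start, holds CAGCTG.
Samd7: gctacttatcctCAGCTGttttcctcttct
In Lcorl the stretch at chr5:45857601-45857630 on the minus strand, at positions −90 to −61 from the start, holds an E-box, and the stretch before the other start lies at chr5:45856553-45856582 on the minus strand.
Lcorl start 1: ggaaggtagtgaCACGTGtcaatcaacccc
Lcorl start 2: ttcgctgtcatgtgatggactcgcgtagcc
On both strands of all 32851 promoters of that length, GGGCGG was in 35.7%, CAGCTG in 16.3% and CACGTG in 7.15%. The TATA box TATAAA (13.6% of all promoters), the cAMP response element TGACGTCA (1.79%) and CCAAT (37.4%) were found in 0 of the 5 stretches of 300 bases. No searched motif was common to the 4 genes. GGGCGG was in 2 of the 5 stretches of 300 bases, those of Grm3 and Lcorl start 2. For Lcorl start 2 it lies within positions −250 to −221, outside the bases printed above.

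Nefl, the light chain, was chosen for its difference, and the other chains differed less and less evenly. In the FLAG IP the mean levels of Nefm and the brighter Nefh probe were above that of Nefl, although on FLAG IP 1 Nefm (−0.30) was below Nefl (−0.07). The dimmer Nefh probe had a FLAG IP mean of −2.77, against 1.27 for the brighter one. Levels of different probes therefore do not rank the transcripts by abundance. In the Input Nefl was far below Nefm and the brighter Nefh probe. Nefl (NM_010910, chromosome 14) had levels of −0.07 and −0.12 in the FLAG IP, against −3.46 and −4.02 in the Input. The FLAG IP arrays almost coincided, and the groups lay 3.65 apart, or 12.5-fold, with 10.2- to 15.5-fold over the array pairs.

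Nefm (NM_008691), the medium chain, whose gene lies next to Nefl, had levels of −0.30 and 0.52 in the FLAG IP, against −0.91 and −0.98 in the Input. Its FLAG IP arrays lay above both Input arrays, as they did for 29.8% of tested features, but were 0.82 apart from each other. The difference was 1.05 ± 0.30 and was not called (adjusted p = 0.0502).

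The array prints the Nefm probe 10 times, which gives the spread between spots of the same array. The SD over spots was 0.039 and 0.023 on the FLAG IP arrays and 0.037 and 0.031 on the Input arrays, after 1 spot of FLAG IP 2 and 2 spots of Input 1 were left out as outliers. The gap of 0.82 between the FLAG IP replicates is thus far wider than the spread between spots. A gap between the FLAG IP arrays at least this wide was found for 7.43% of tested features.

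**Figure D2:**
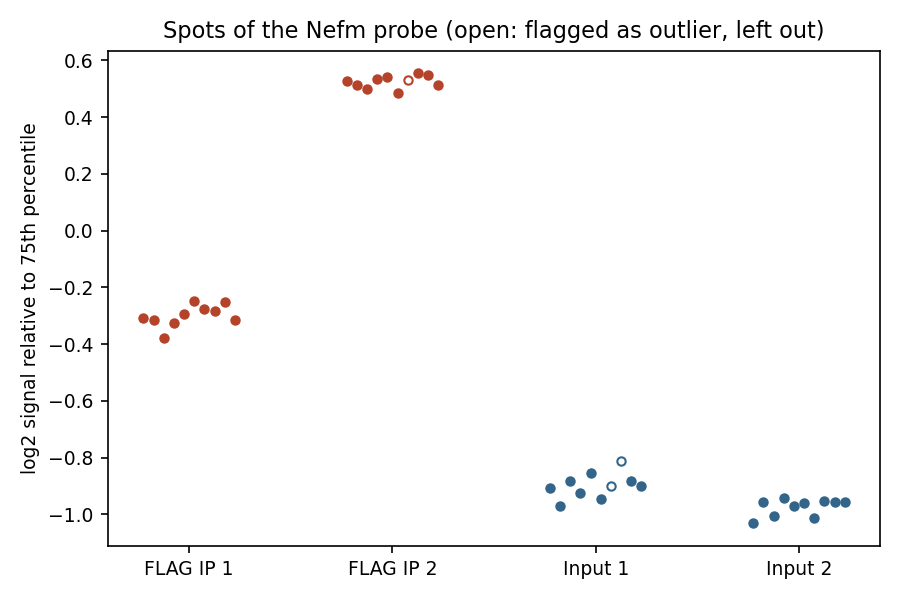
Levels of the individual Nefm spots (log2 signal relative to the array's 75th percentile, y axis) on the FLAG IP and Input arrays (x axis), with open symbols for spots left out as outliers. The spots of each array cluster tightly, FLAG IP 2 lies 0.82 above FLAG IP 1, and the Input arrays lie within 0.07 of each other.

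Nefh (NM_010904, chromosome 11), the heavy chain, had 2 probes. The brighter had levels of 0.74 and 1.80 in the FLAG IP, against 0.10 and −0.23 in the Input, with a difference of 1.33 ± 0.38 that was not called (adjusted p = 0.0514). The dimmer had −3.39 and −2.14 in the FLAG IP, against −4.18 and −4.98 in the Input, and rose by 1.81 ± 0.50 (adjusted p = 0.0470, in a fit of all 27824 tested probes, of which 15.6% were called higher and 20.1% lower). Without FLAG IP replicate 2 that probe was not called (1.19, adjusted p = 0.069). Both probes were above the Input on both FLAG IP arrays, and both read FLAG IP 2 as the higher, by 1.05 and 1.25.

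Nefm and Nefh thus resembled each other in which FLAG IP array was higher, and Nefl did not share this. The lowest array pair of Nefl, 10.2-fold, was above the highest of Nefm, 2.83-fold, and the highest of the Nefh probes, 4.08-fold and 7.15-fold. The calls of Nefm and Nefh turned on single arrays: leaving out FLAG IP replicate 1 gave 1.47 (adjusted p = 0.010) for Nefm and 1.86 (adjusted p = 0.011) for Nefh, and leaving out FLAG IP replicate 2 gave 0.64 (adjusted p = 0.040) and 0.81 (adjusted p = 0.046), with the spread then taken from the Input arrays alone. Over all alternatives the adjusted p ran from 0.010 to 0.96 for Nefm and from 0.011 to 0.64 for the Nefh gene.

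**Figure D3:**
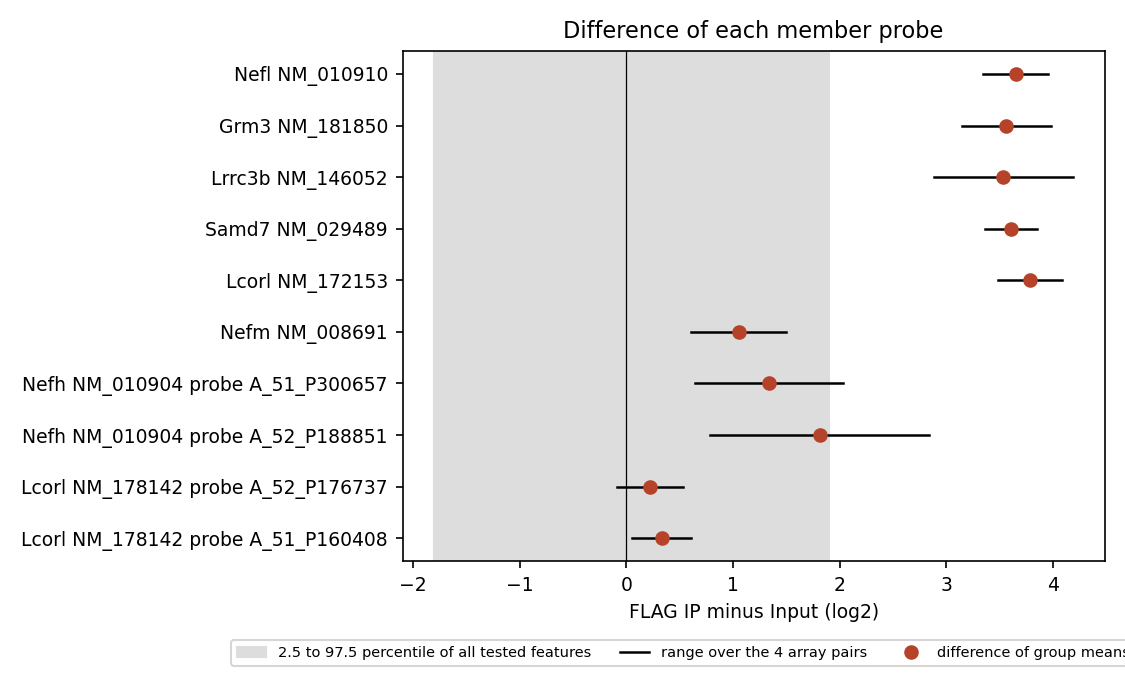
FLAG IP minus Input (log2, x axis) for each member probe (rows), as the difference of group means (points) with the range over the 4 pairings of arrays (lines), on a grey band that leaves out 2.5% of all tested features at each end (−1.80 to 1.90). The 5 chosen probes lie beyond the band with all pairings, Nefm and the 2 Nefh probes lie inside it by their means, and the 2 other Lcorl probes lie near 0.

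Beyond the 7 genes, 34 called genes of the lists below were taken by the naming rule. Leaving out Input replicate 1 ended 22 of these calls and leaving out Input replicate 2 ended 23, the spread then resting on the FLAG IP arrays alone, and scaling to spike-in spots ended 15. Those 15 were Cbx7, Cbx8, Fbxw7, Flrt2, Homer1, Ina, Isl1, Lcor, Lmnb1, Lrrn1, Rbbp4, Rimkla, Syn2, Tardbp and Yaf2. Dst, Elavl4, Lrrn1, Mtf2, Slc1a1, Snap25, Syn2 and Tardbp were among the 9 of the 34 that were called whichever array was left out. Lrrn1, Syn2 and Tardbp are thus both among these 9 and among those lost with spike-in scaling.

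Among the other intermediate filament genes the values went both ways. Of 16 tested genes of that list, leaving out Nefl, 2 were higher and 2 lower, near the 15.8% and 21.3% of all features, with a median of −0.09. Ina, the neurofilament partner, rose by 0.76 ± 0.16 (adjusted p = 0.023) and Lmnb1, a nuclear lamin, by 0.98 ± 0.21 (adjusted p = 0.025), but scaling to spike-in control spots turned both signs (−0.32 and −0.10). Vim, vimentin of mesenchymal and Sertoli cells, fell by 0.96 (SE 0.21, adjusted p = 0.027), and without FLAG IP replicate 1 its call ended (−0.77, adjusted p = 0.054). Gfap, the astrocyte filament, and Bfsp2, a lens filament, were not well above background on any array, and Prph, peripherin of peripheral neurons, was so on 1 array of each group.

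Of 21 genes that transport, anchor or turn over neurofilaments or bind Nefl mRNA, 3 were higher and 6 lower, with a median of −0.27 (all features: 15.8%, 21.3% and −0.15). Tardbp, which encodes the RNA-binding protein TDP-43, had levels of 3.74 and 3.71 in the FLAG IP, against 1.81 and 1.85 in the Input, a rise of 1.90 ± 0.13 (adjusted p = 0.0040). This rested on its brightest probe, since the other probes of Tardbp had −0.35 (adjusted p = 0.45) and −0.09 (adjusted p = 0.86), and with the probes averaged the rise was not called (0.49, adjusted p = 0.072). Scaling to spike-in spots also ended the call of Tardbp. Fbxw7, a ubiquitin ligase subunit, rose by 1.08 ± 0.19 (adjusted p = 0.016), but had −0.00091 with scaling to spike-in spots. Dst, the linker protein dystonin, fell by 1.59 (SE 0.14, adjusted p = 0.0049), and Dync1h1, the dynein heavy chain, fell by 1.27 (SE 0.14, adjusted p = 0.0068). The probes of Dst disagreed, with differences from −1.77 to 0.80 among the others, and their average was not called (−0.80, adjusted p = 0.085).

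Grm3 (NM_181850, chromosome 5) was the only gene tested of the metabotropic glutamate receptor family. It had levels of −1.05 and −1.58 in the FLAG IP, against −5.03 and −4.73 in the Input. Both FLAG IP arrays were far above both Input arrays, by 3.56 or 11.8-fold, with 8.86- to 15.8-fold over the pairs. Of the other family members with a probe, Grm6, Grm7 and Grm8 were among those not well above background on any array, and Grm4 was well above it on 1 FLAG IP array. Grm2 and Grm5 had no probe matched to them.

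Of the 16 ion channel receptor genes for glutamate with a probe, 8 were tested, of which 0 were higher in limma (0 also at an unadjusted p under 0.05), 3 were lower and 5 were not called, with a median of −0.53. With 15.8% of all features higher and 21.3% lower, such counts among 8 genes are near the background. Gria3, an AMPA receptor subunit, had −5.05 and −5.24 in the FLAG IP against −3.78 and −3.55 in the Input, and fell by 1.48 (SE 0.16, adjusted p = 0.0070). The kainate receptor subunits Grik5 and Grik4 fell by 0.91 (SE 0.15, adjusted p = 0.015) and 0.83 (SE 0.16, adjusted p = 0.020). The remaining 8 of the 16, among them the AMPA subunits Gria1 and Gria2 and the NMDA subunits Grin2a and Grin2b, were not well above background on any array.

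Genes of glutamate transport, synthesis and receptor scaffolding were tested for 16 members, of which 3 were higher and 2 lower, near the shares of all features (15.8% and 21.3%), with a median of 0.28. Slc1a1, the neuronal type of glutamate transporter also known as EAAC1, had levels of −2.01 and −1.75 in the FLAG IP, against −4.53 and −5.17 in the Input. It rose by 2.97 ± 0.26 (adjusted p = 0.0050), and its other probe rose by 2.14 ± 0.16 (adjusted p = 0.0044). Homer1, a scaffold of metabotropic receptors, rose by 1.08 ± 0.14 (adjusted p = 0.0088), with 1.35 and 1.61 at its other probes. Its call ended with scaling to spike-in spots. Rimkla, which makes N-acetylaspartylglutamate, the peptide agonist of the Grm3 receptor, rose by 0.89 ± 0.14 (adjusted p = 0.013), but had −0.19 with scaling to spike-in spots. Slc1a3, the glial type of transporter, was lower, with a mean level of −2.76 in the FLAG IP against −1.76 in the Input (adjusted p = 0.042), and without FLAG IP replicate 2 its call ended (−0.77, adjusted p = 0.089).

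Lrrc3b (NM_146052, chromosome 14) had levels of −0.38 and −1.25 in the FLAG IP, against −4.57 and −4.13 in the Input. The groups lay 3.53 apart, or 11.6-fold, and the pairs ranged from 7.38- to 18.2-fold, the widest range of the 5 chosen probes. Its paralogue Lrrc3 had levels of −3.31 and −3.59 in the FLAG IP, against −3.57 and −3.48 in the Input, with overlapping groups and a difference of 0.08 ± 0.16 (adjusted p = 0.73).

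Among 18 tested genes for leucine-rich repeat membrane proteins, leaving out Lrrc3b, 2 were higher and 1 was lower, against 15.8% and 21.3% of all features, with a median of −0.16. Lrrn1, a neuronal leucine-rich repeat protein, had −0.41 and −0.65 in the FLAG IP against −2.44 and −2.31 in the Input, and rose by 1.84 ± 0.16 (adjusted p = 0.0048). Its call ended with scaling to spike-in spots. Flrt2, a guidance receptor ligand, rose by 0.59 ± 0.16 (adjusted p = 0.044) but had −0.49 with scaling to spike-in spots, and without FLAG IP replicate 2 it was not called (0.50, adjusted p = 0.090). Lrrn2 fell by 0.80 (SE 0.13, adjusted p = 0.015), although its other probe had 0.08 (adjusted p = 0.87). The synaptic organisers Lrrtm1, Lrrtm2, Lrrtm3 and Lrrtm4 were not well above background on any array.

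Samd7 (NM_029489, chromosome 3) had levels of −1.39 and −1.53 in the FLAG IP, against −4.90 and −5.24 in the Input. The replicates of each group lay close together and the groups 3.61 apart, or 12.2-fold, with 10.3- to 14.4-fold over the pairs. The photoreceptor genes, with which Samd7 is expressed in the retina, were dark in part. Of 25 with a probe, 12 were not well above background on any array, among them Crx, Nrl and Otx2. On all 4 arrays 7 were well above it, and 8 were tested. Of these 1 was higher and 2 were lower, near the background, with a median of −0.58 that was unchanged with a member known only by its bound set at that bound. Rcvrn, recoverin, fell by 0.71 (SE 0.15, adjusted p = 0.025) and Cngb1, a channel subunit, fell by 0.53 (SE 0.13, adjusted p = 0.038). Without FLAG IP replicate 1 and without FLAG IP replicate 2 the call of Cngb1 ended, and with normexp background correction that of Rcvrn ended (−0.09, adjusted p = 0.66).

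The list of SAM-domain and Polycomb repressive complex 1 genes had, leaving out Samd7, 11 of 24 tested members higher and 2 lower, against 15.8% and 21.3% of all features. Its median was 0.58, against −0.15 over all features. Cbx7, a chromodomain reader of H3K27 methylation, had 0.44 and −0.01 in the FLAG IP against −1.52 and −1.16 in the Input, and rose by 1.56 ± 0.23 (adjusted p = 0.012). Yaf2, a subunit of variant complexes, rose by 1.41 ± 0.15 (adjusted p = 0.0066) and Cbx8 by 1.22 ± 0.19 (adjusted p = 0.013). Scaling to spike-in control spots ended the calls of Cbx7, Yaf2 and Cbx8. The SAM-domain core subunits Phc1 and Phc2 had differences of −0.04 (adjusted p = 0.83) and −0.57 (adjusted p = 0.033), and Phc3 was well above background on 1 FLAG IP array only. Of the other list members, Scmh1 and Scml4 rose by 1.15 (adjusted p = 0.014) and 1.03 (adjusted p = 0.026), and L3mbtl3 fell by 0.76 (adjusted p = 0.044). The rise of Scml4 is smaller than the shift that spike-in scaling gives every difference (−1.08).

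The 3 probes of Lcorl (chromosome 5), listed for different transcripts, gave different values. The probe for NM_172153 had levels of 2.02 and 1.72 in the FLAG IP, against −2.06 and −1.76 in the Input, 3.78 apart or 13.8-fold, with 3.48 to 4.08 over the pairs. The 2 probes for NM_178142 showed no such gap. The brighter had −2.00 and −2.34 in the FLAG IP against −2.53 and −2.25 in the Input, with overlapping groups and a difference of 0.22 ± 0.20 (adjusted p = 0.41 in the fit of all tested probes). The dimmer had −4.86 and −5.06 in the FLAG IP against −5.47 and −5.12 in the Input, a difference of 0.33 ± 0.19 (adjusted p = 0.22). With the 3 probes averaged, the gene's difference was 1.44. Where on the transcripts these probes lie is not given in the files, and probes listed for 1 accession also disagreed for other genes, as for Tardbp and Rbbp4, so a difference between transcripts was not tested.

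Lcor, the paralogue of Lcorl, was at least 2.74-fold higher in the FLAG IP (adjusted p = 0.0087), the Input being only a bound because neither Input array had it well above background. Scaling to spike-in spots ended the call of Lcor. Of 21 tested genes for Lcor, the corepressor partners of both proteins and the Polycomb repressive complex 2 to which they bind, leaving out Lcorl, 8 were higher and 3 lower, against 15.8% and 21.3% of all features, with a median of 0.50. Mtf2, a Polycomb-like subunit, had 3.96 and 3.69 in the FLAG IP against 1.48 and 1.68 in the Input, and rose by 2.24 ± 0.17 (adjusted p = 0.0043), with smaller rises of 1.05 (adjusted p = 0.027) and 0.79 (adjusted p = 0.030) at its other probes. Rbbp4, a histone-binding subunit, rose by 1.57 ± 0.32 (adjusted p = 0.022), with 1.81 and −0.41 at its other probes. With scaling to spike-in spots the call of Rbbp4 ended. The corepressor genes went both ways: the histone deacetylase gene Hdac1 rose by 1.18 (adjusted p = 0.0091), while Hdac2 fell by 1.39 (adjusted p = 0.046), Hdac3 by 0.59 (adjusted p = 0.031) and Ctbp1 by 0.55 (adjusted p = 0.044).

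**Figure D4:**
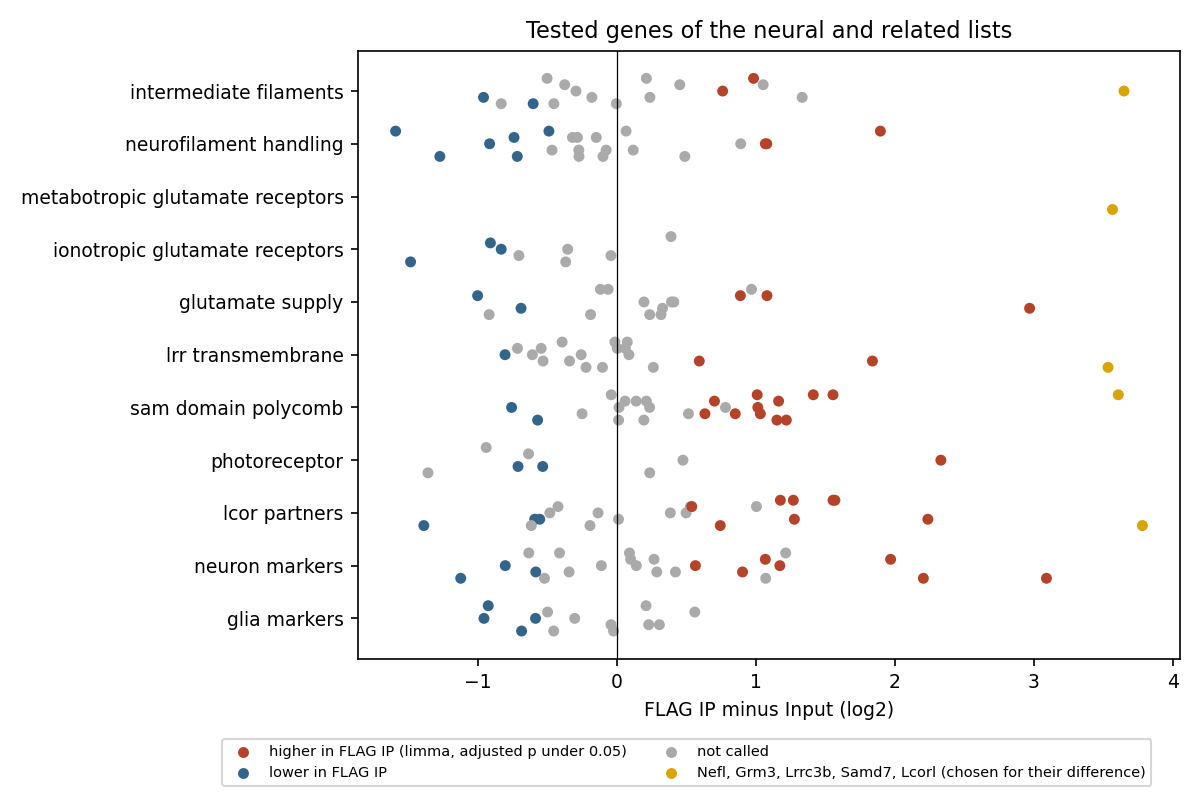
FLAG IP minus Input (log2, x axis) of every tested gene in the neural and related lists (rows), coloured by the limma call at an adjusted p under 0.05, with the 5 chosen genes in a colour of their own. Higher and lower calls occur side by side in most lists; without Samd7, 11 of 24 SAM-domain and Polycomb genes were higher and 2 lower.

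Markers of neurons were in part not detected, in part higher and in part lower in the FLAG IP. Of 35 fixed markers 33 had a probe, 7 were not well above background on any array and 23 were tested, of which 7 were higher and 3 lower, against 15.8% and 21.3% of all features, with a median of 0.27, also with members at their bound. Snap25, a SNARE protein of synaptic vesicle release, was at least 7.52-fold higher (adjusted p = 0.0038), with levels of −3.54 and −3.51 in the FLAG IP and no Input array well above background. Elavl4, a neuronal RNA-binding protein, had −0.22 and −0.47 in the FLAG IP against −2.65 and −2.45 in the Input, and rose by 2.21 ± 0.17 (adjusted p = 0.0043). Syn2, a synapsin of synaptic vesicles, rose by 1.97 ± 0.21 (adjusted p = 0.0067) and Isl1, a homeobox factor of motor and sensory neurons, by 1.17 ± 0.20 (adjusted p = 0.015). Scaling to spike-in spots ended the calls of Syn2 and Isl1.

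The neuronal markers that were not well above background on any array were Gap43, Dcx, Scg2, Gad1, Gad2, Th and Chat, which cover growing axons, migrating neurons and the enzymes of GABA, catecholamine and acetylcholine synthesis. Those that were lower were Camk2a, a synaptic kinase (−1.12, adjusted p = 0.021), Tubb3, neuronal tubulin (−0.80, adjusted p = 0.021), and Stmn3, a stathmin (−0.58, adjusted p = 0.033). The summed level of the 33 markers was 18.6 and 16.7 in the FLAG IP against 15.6 and 17.6 in the Input, so the groups overlapped. Syn1 and Tubb3 made up most of that sum. Leaving them out, a split made after the values were seen, the other 31 markers summed to 7.81 and 7.28 in the FLAG IP. In the Input they summed to 4.92 and 5.26, without overlap. Kif5c and Elavl4 made up most of that gap. Kif5c had log2 levels of 1.28 and 1.11 in the FLAG IP against −0.10 and 0.35 in the Input. Of single tested features, 29.8% had both FLAG IP arrays above both Input arrays. Of 13 tested glial markers 0 were higher in limma (0 also at an unadjusted p under 0.05) and 4 were lower, against 15.8% and 21.3% of all features, with a median of −0.30. Among these S100b fell by 0.95 (adjusted p = 0.010), Aldh1l1 by 0.68 (adjusted p = 0.034) and Ncmap by 0.58 (adjusted p = 0.045). The summed level of the 20 glial markers with a probe was 15.6 and 14.2 in the FLAG IP against 20.2 and 20.8 in the Input. The word neural describes where some of the chosen genes are known to act.

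The 5 chosen genes differed among themselves in how the replicates lay. FLAG IP 2 minus FLAG IP 1 was −0.05 for Nefl, −0.14 for Samd7, −0.30 for Lcorl, −0.53 for Grm3 and −0.86 for Lrrc3b, against an SD of 0.47 over all tested features. Input 2 minus Input 1 was −0.55 for Nefl and −0.35 for Samd7, but 0.31 for Grm3 and Lcorl and 0.44 for Lrrc3b. Nefl and Samd7 were therefore lower on Input 2, and the other 3 higher.

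Each of the 5 was also set against 12552 named features by the root mean square difference of the 4 values, each centred on its own mean. This likeness is a description from the same 4 values that give the replicate gaps above and on which the genes were selected, and large differences resemble one another by construction. Nefl and Samd7 were nearest to each other, at 0.08, and Cphx1, a homeobox gene, was second for both, at 0.18. Nearest to Grm3 were Nr5a2, an orphan nuclear receptor, and Hlf, a bZIP transcription factor, each at 0.08. Nearest to Lrrc3b were Neurog3, a factor of spermatogonial progenitors, at 0.12, and Grm3, at 0.13, and nearest to Lcorl were Gtf2a1l, a transcription factor subunit of germ cells, at 0.07, and Grm3, at 0.14. Nefm and Nefh lay between 1.21 and 1.43 from each of the 5.

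How far the 5 chosen genes stood above the Input depended on how background was treated. With normexp background correction, which adds an offset of 50 to dim and bright spots alike, the differences were 3.58 for Lcorl, 3.04 for Nefl, 2.80 for Lrrc3b, 2.56 for Grm3 and 2.47 for Samd7. Lcorl, whose Input signals were 353 and 496 units, changed least, and Samd7, whose Input signals were 49.5 and 44.3 units, changed most. Scaling to 10 spike-in control probes moved the median of all features by −1.08 and the median of the 5 to 2.53. This scaling shifts every difference alike, so the distance of 3.75 above the median of all features is unchanged by construction.

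**Figure D5:**
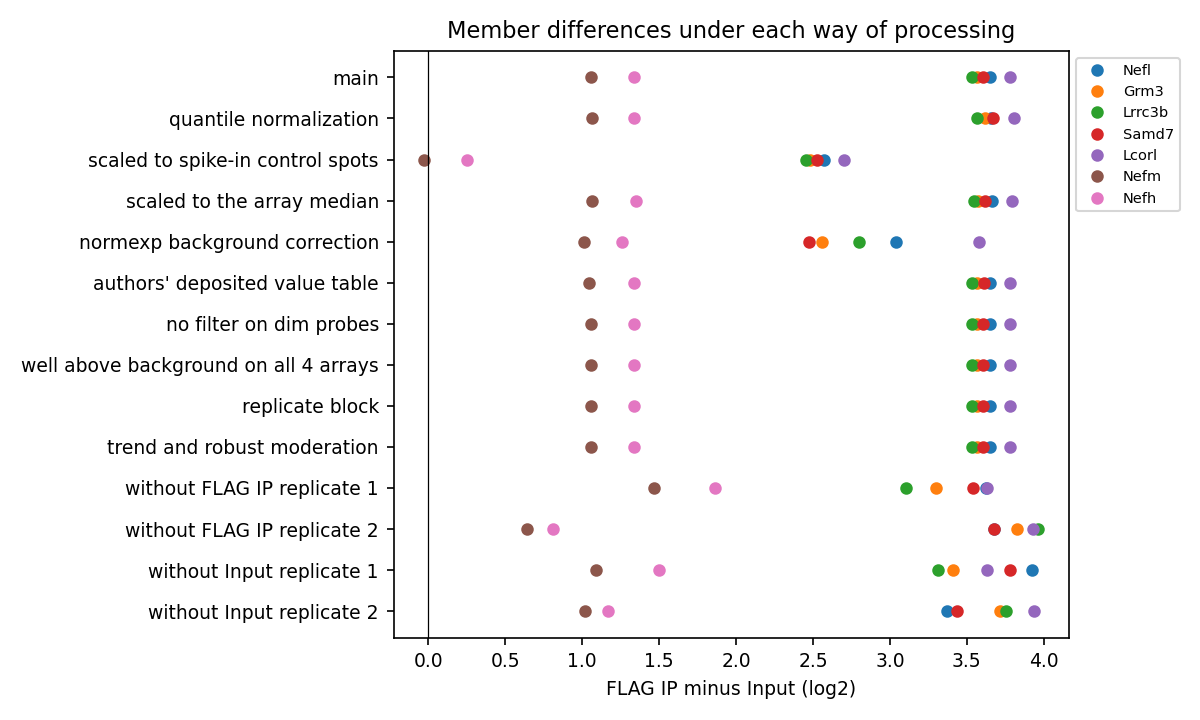
FLAG IP minus Input (log2, x axis) of Nefl, Grm3, Lrrc3b, Samd7, Lcorl (NM_172153), Nefm and Nefh (brighter probe) under each way of processing (rows). The 5 chosen genes lie between 2.45 and 3.97 in the 14 rows, and Nefm and Nefh between −0.03 and 1.86.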

How the data were processed

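RNA of mouse testis was hybridised to 4 single-colour (Cy3) Agilent arrays, 2 FLAG IP and 2 Input, all on 1 slide and in 1 scan per the file headers. Per the submitters' processing notes the scanner software was Agilent Feature Extraction 9.5. The deposited intensity values are, per the file headers, a background-subtracted processed signal with flags. The authors' deposited log2 table equals log2 of that signal less a constant per array, within 0.01 for 99.6% of probes, its column medians being 6.25 and 6.15 (FLAG IP) and 6.18 and 6.25 (Input), and how that constant was set is not stated in the sources.

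Of 43379 spots per array, 62 to 90 flagged outliers were left out, 0 were saturated, and spots of a probe were averaged on the log2 scale. Values were scaled to each array's 75th percentile. Accessions were matched without version to RefSeq genes of GRCm38.p6, which named 22951 probes (55.7%). The brightest probe over all arrays stood for a gene. Features well above background (at least a share of 0.5 of spots) on both arrays of a group were tested with limma 3.58.1 in R 4.3.3, with no covariates. The procedure was tested on simulated data. A transcript not well above background in a group is given as "at least", against the higher of its own and the lowest signal well above background on each array. p-values measure the spread between these samples.

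The members, lists and naming rule (up to 4 called members of each list with the largest difference, or 2 where none was called, genes most like each member, and adjacent genes) were chosen with earlier results of these data known. Further list members named as dark or as paralogues or subunits (such as Lrrc3, Phc1, Phc2, Phc3, Ctbp1, Hdac1, Hdac2, Hdac3, Syn1, Camk2a, Stmn3 and Tubb3) were chosen after their values were seen. The same holds for Scmh1, Scml4, L3mbtl3, Foxo1 and Utf1. Some list members are counted but not reported by name here. Alternatives changed scaling, background, filter, moderation, probe averaging, the replicate block and the arrays used.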

Additional observations from a re-analysis of the deposited data

How the results depend on the processing

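Quantile normalization, scaling to the array median, the authors' table, trend and robust moderation and averaging probes left the counts of higher and lower features within 1.5 times 3409 and 4600. Scaling to spike-in spots gave 387 higher and 13035 lower (2.88% of calls higher, against 42.6%) and a median of 2.53 for the 5 chosen genes, and normexp correction moved that median to 2.80. Without a filter on dim probes 3019 were lower. Leaving out 1 array in turn gave 977 to 3726 higher and 552 to 4572 lower, with the lowest counts without Input replicate 1 (977 and 707) and without Input replicate 2 (1010 and 552), and a median of 3.54 to 3.83 for the 5 genes. Nefm passed the threshold with normexp (1.01, adjusted p = 0.014), with all 4 arrays required above background (1.05, adjusted p = 0.040) and with trend and robust moderation (1.05, adjusted p = 0.030), as did Nefh (1.26, 1.33 and 1.33, adjusted p = 0.026, 0.041 and 0.029). Leaving out 1 array gave 0.64 to 1.47 for Nefm and 0.81 to 1.86 for Nefh. Spike-in scaling lowers every difference alike (shift of the median −1.08). Among the genes taken by the naming rule, it turned the sign of 6 called genes. They were Fbxw7 (−0.00091), Flrt2 (−0.49), Ina (−0.32), Lmnb1 (−0.10), Oxsm (−0.49) and Rimkla (−0.19). Called rises smaller than the shift in genes outside that rule, such as Scml4 (1.03), are not in this count. Among values not called, those of Nefm (−0.03), the Lcorl probes of NM_178142 (−0.86 and −0.75), Ap1b1 (−0.92) and Elapor2 (−0.67) are examples.

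The replicate block gave 2269 higher and 2289 lower. The numbers in the titles are not stated to pair the arrays, and same-numbered arrays deviated with a correlation of −0.38 over features. The crossed replicate block, added after seeing the data, gave 4321 higher and 6497 lower, and with it Nefm and Nefh were called (1.05 and 1.33). Of 34 called list members that the naming rule took, 22 lost the call without Input replicate 1, 23 without Input replicate 2, 4 without FLAG IP replicate 1, 5 without FLAG IP replicate 2, 15 under spike-in scaling, 11 with the block and 9 without a filter. Of the 34, 9 kept it whichever array was left out, among them Dst, Elavl4, Lrrn1, Mtf2, Slc1a1, Snap25, Syn2 and Tardbp. Spike-in scaling ended the calls of Lrrn1, Syn2 and Tardbp. A slide or scan block could not be fitted, as all arrays share both.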

Other observations

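Genes adjacent to the members on the chromosome had values of their own. Next to Lrrc3b, with 1 gene between them, lies Slc4a7, a sodium bicarbonate cotransporter, which had levels of −2.37 and −0.79 in the FLAG IP against 2.46 and 1.71 in the Input and fell by 3.66 (SE 0.58, adjusted p = 0.013). On the other side Oxsm, a mitochondrial fatty acid synthase enzyme, had −2.39 and −2.43 in the FLAG IP against −3.02 and −2.99 in the Input, a rise of 0.60 ± 0.13 (adjusted p = 0.028) that had −0.49 under spike-in scaling. Next to Lcorl, Slit2, a secreted guidance ligand, had −0.44 and −0.62 in the FLAG IP against 0.45 and 0.67 in the Input and fell by 1.09 (SE 0.16, adjusted p = 0.012), while Fam184b on the other side, with 1 gene between, had a difference of −0.14 ± 0.21 (adjusted p = 0.64).

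The neighbours of the neurofilament genes were not called. Gnrh1, beyond 1 gene without a matched probe from Nefl, had −0.48 ± 0.19 (adjusted p = 0.11), and Thoc5 and Ap1b1 beside Nefh had 0.11 ± 0.14 (adjusted p = 0.57) and 0.17 ± 0.14 (adjusted p = 0.38). Elapor2 beside Grm3 had 0.41 ± 0.45 (adjusted p = 0.50), and Sec62 beside Samd7 had 0.07 ± 0.17 (adjusted p = 0.75). Adam7 beside Nefm, Lrriq4 near Samd7 and Gm6460 near Grm3 were not well above background on any array.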
